A study of Mus musculus with 12 samples.

Results

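Il18rap encodes the accessory chain of the interleukin 18 receptor, and its exon bins were followed here across 12 computer-mixed RNA sequencing samples of a mouse cell line. An exon bin is a non-overlapping piece of the exons of a gene model. Il18rap was 1 of 58 gene models and held 15 of 925 bins, named E001 to E015 from 5′ to 3′. The bins were those that carry the gene name Il18rap, or the same model name before the colon, and 15 of the 30 deposited lines were exact repeats and were dropped. The model joins 3 UCSC transcripts, uc007auj.1, uc007auk.1 and uc007aui.1.

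Interleukin 18 first binds the ligand-binding chain Il18r1, and the pair then recruits Il18rap. The cytoplasmic TIR domains of both chains bring in the adaptor Myd88, which leads to activation of NF-kappaB. The pathway is best known for interferon gamma production by natural killer and T cells.

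Each sample joined a background of TruSeq (poly(A)-selected, unstranded) reads from D1 cells with reads of listed transcripts taken from a second library, and each held 5 replicates. The background was made from 1000 ng or from 100 ng of total RNA. The added reads came from 20M, 40M or 80M reads (M, 1e6 reads) of a library that was made with NuGENv2 from 2 ng or with TruSeq from 100 ng of RNA, so that there were 2 backgrounds, 2 kits and 3 source depths, and both backgrounds also received synthetic reads of other transcripts. The labels list uc007aui.1 for kit reads in the 100 ng background only, and list no Il18rap transcript for the 1000 ng background or for synthetic reads. The samples are thus mixtures built on a computer and not cells that differed in Il18rap, and the labels name no separate cultures, so p-values measure the spread between these replicates, which may be technical. Each table of 1 kit and 1 depth set the 5 replicates of the 1000 ng background against the 5 of the 100 ng background.

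Il18rap lies on the plus strand of chromosome 1 from 40572207 to 40608550 (NCBIM37, the assembly that UCSC names mm9), with Il18r1 14507 bases upstream and Slc9a4, a sodium-hydrogen exchanger, 28521 bases downstream. The annotation (GENCODE vM1) gives 4 transcripts and no overlapping gene. The coding transcript ENSMUST00000027237.5 has 13 exons and 614 codons. ENSMUST00000159724.1, annotated as a retained intron, has 6 exons and ends at 40583762, the end of E007. ENSMUST00000163057.1, also annotated as a retained intron, has 9 exons and ends at 40596330, the end of E011. The last, ENSMUST00000160468.1, is a retained intron with 3 exons from 40598537 to 40604748. E001 to E003 are 5′ UTR exons, E004 holds the start codon, and E005 and E006 are coding exons 5 and 6. E007, from 40582233 to 40583762, is the first 1530 bases of the 6088-base intron 6. E008, E009 and E010 are coding exons 7, 8 and 9, and E011 is the start of intron 9. E012 to E014 are coding exons 10 to 12. E015 is placed in exon 13, which holds the end of the coding sequence and the 3′ UTR. Its inferred length is 672 bases against 3081 annotated, and which part it covers is not known. The exon structure of uc007aui.1 itself was not used here.

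Sequences are shown for the junctions around intron 6 and for the end of exon 9, on the plus strand of NCBIM37, 5′ to 3′. The data give reads per bin only, so use of these junctions was not measured. The first is all of exon 6 followed by the first 30 bases of E007, chr1:40582049-40582262, with the first 2 intron bases and the first in-frame stop codon in capitals. The second is the splice acceptor before E008, chr1:40588291-40588350, with the last 2 intron bases in capitals. The third is the splice donor after E010, chr1:40596163-40596222, with the first 2 bases of E011 in capitals.
Exon 6 and start of E007: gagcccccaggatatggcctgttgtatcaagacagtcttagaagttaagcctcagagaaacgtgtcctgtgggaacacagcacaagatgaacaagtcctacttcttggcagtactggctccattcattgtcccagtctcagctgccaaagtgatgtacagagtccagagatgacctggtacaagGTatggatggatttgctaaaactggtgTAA
Acceptor before E008: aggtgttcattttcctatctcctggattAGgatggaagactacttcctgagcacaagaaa
Donor after E010: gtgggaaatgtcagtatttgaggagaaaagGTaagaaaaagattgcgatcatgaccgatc
Read in frame from the annotated start codon through exon 6 into the intron, the sequence holds 201 codons before the stop shown, which ends 30 bases into E007. All 12 introns of the coding transcript start with GT and end with AG.

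Reads in all bins of a replicate numbered between 237258 and 593002, except that the 100 ng background with 20M TruSeq reads held between 1101798 and 1281559. Of 31 genes of the interleukin 18 and interleukin 1 receptor pathway, Il18rap was the 1 gene with a model in these tables, so its ligand, partner chain and signalling genes could not be described. Of the lists of cell type markers, 2 of 14 dendritic and myeloid genes (Sirpa and Mgl2), 0 of 10 T and NK cell genes and 0 of 3 B cell genes had a model, so the cell type could not be checked.

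The 1000 ng background held the same Il18rap reads in all 6 tables. These were 909, 1661, 753, 920 and 726 reads in replicates 1 to 5, and no bin gained or lost a read with kit or depth. All 6 comparisons therefore share their 1000 ng reads, and they also share the 100 ng background reads, so they are not independent of each other. In the 100 ng background the totals were 501, 490, 1249, 1039 and 469 reads with 20M NuGENv2 reads, and replicates 3 and 4 held more reads than the others.

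Within the 1000 ng background, the Il18rap bins differed widely in coverage. Levels between bins are compared per length as FPKM equivalents, which are reads per kilobase of bin and per 1e6 reads of the scaled library. In the table with 80M TruSeq reads, exon 8 (E009) had the highest mean level at 29.4 ± 4.70 (SD, n = 5), and the UTR exon E001 the lowest among exons at 2.88 ± 0.599. The intron parts were low, with E007 at 0.287 ± 0.0573 and E011 at 2.38 ± 0.576. E007 held 10, 20, 9, 9 and 12 reads in the 5 replicates, against 57, 103, 53, 59 and 69 for the shorter exon 6, so E007 is the less precisely measured bin.

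Between tables, Il18rap gained reads only in the 100 ng background, and the 2 kits differed in how far along the model these reads reached and in their shares per bin. How many kit reads the table with 20M NuGENv2 reads already held is not known. Each step in kit or depth added the same number of reads to a given bin in all 5 replicates, so the added reads form 1 set per step with no replicates of their own, and no test was made on them. With NuGENv2 reads, the model gained 29 reads from 20M to 40M (exact 95% Poisson interval 19.4 to 41.6) and 123 reads from 40M to 80M (102 to 147). With TruSeq reads it gained 190 reads from 40M to 80M (164 to 219). These intervals, and those on shares, cover counting error only, since reads copied in PCR are not independent molecules.

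From 40M to 80M, the NuGENv2 reads fell on E001 to E007 and stopped there. E003 gained 19 reads, E004 24, E005 24, E006 16 and the intron part E007 35, with 2 in E001 and 3 in E002. E008 to E010 gained 0 of 123 reads, which allows a share of up to 2.44% (3 counts of the total), and E011 to E015 likewise gained 0. Per length, the gain was highest in the adjoining E004 and E003, at 145 and 138 reads per kilobase, and was 87.4 in E006 and 22.9 in E007.

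The TruSeq reads of the same step reached past intron 6 and centred on exons 5 and 6. E005 gained 53 reads, E006 52, E008 30, E004 22, E007 16 and E003 11, while E001, E002, E009 and E010 gained 1 or 2 each. E011 to E015 gained 0 of 190 reads, which allows a share of up to 1.58% (3 counts of the total). Per length, E006 gained most at 284 reads per kilobase, followed by E008, and E005 gained 165. Both kits thus left the 5 bins from the start of intron 9 to the 3′ end without added reads at these depths.

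**Figure D1:**
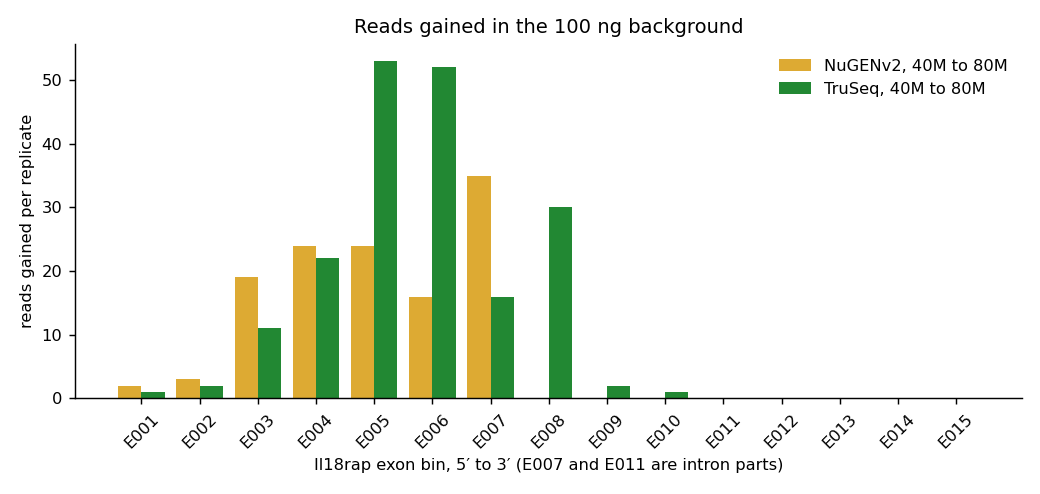
Reads gained by each Il18rap bin in every replicate of the 100 ng background when the source depth went from 40M to 80M, with bars for NuGENv2 (yellow) and TruSeq (green) reads. NuGENv2 bars end at E007, where they reach 35 reads, and TruSeq bars are highest at E005 and E006, at 53 and 52 reads, and extend to E010.

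From 40M to 80M, the share of added reads in the intron part was larger with NuGENv2. E007 took 35 of 123 reads, 28.5% (exact Clopper-Pearson 95% interval 20.7 to 37.3%), against 16 of 190 reads, 8.42% (4.89 to 13.3%), with TruSeq. In the smaller NuGENv2 step from 20M to 40M it took 2 of 29 reads, 6.90% (0.846 to 22.8%), which overlaps both, so the larger share rests on the 40M to 80M step. E008 to E010 took 33 of 190 TruSeq reads, 17.4% (12.3 to 23.5%). Exons 5 and 6 took 32.5% (24.4 to 41.6%) of NuGENv2 reads and 55.3% (47.9 to 62.5%) of TruSeq reads, and E003 with E004 took 35.0% (26.6 to 44.1%) and 17.4% (12.3 to 23.5%). Between 40M and 80M the intervals of the kits do not overlap for any of these groups of bins, which were chosen after their values were seen. Kit, RNA input (2 ng against 100 ng) and the library itself cannot be told apart.

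The first comparison asked which Il18rap bins differed between the backgrounds at 80M source reads. With TruSeq reads, E003 to E008 were higher in the 100 ng background, by 1.74 to 4.22 times in mean FPKM equivalents, and no bin was called as higher in the 1000 ng background. Of the 15 bins these 6 passed limma with Benjamini-Hochberg adjustment over 924 bins, where 21.3% of all bins were called and 13.4% were called as higher in the 100 ng background. With NuGENv2 reads 5 bins passed, E003 to E007, against 11.8% of all bins called and 6.82% called as higher in the 100 ng background. With values as deposited, which are not scaled for depth, limma called 0 bins in both tables, and without the fifth 100 ng replicate, deposited in another unit, it called 2 with TruSeq and 0 with NuGENv2. The added reads are the same in every replicate, so these tests set them against the spread of the backgrounds and not against variation between kit libraries.

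**Figure D2:**
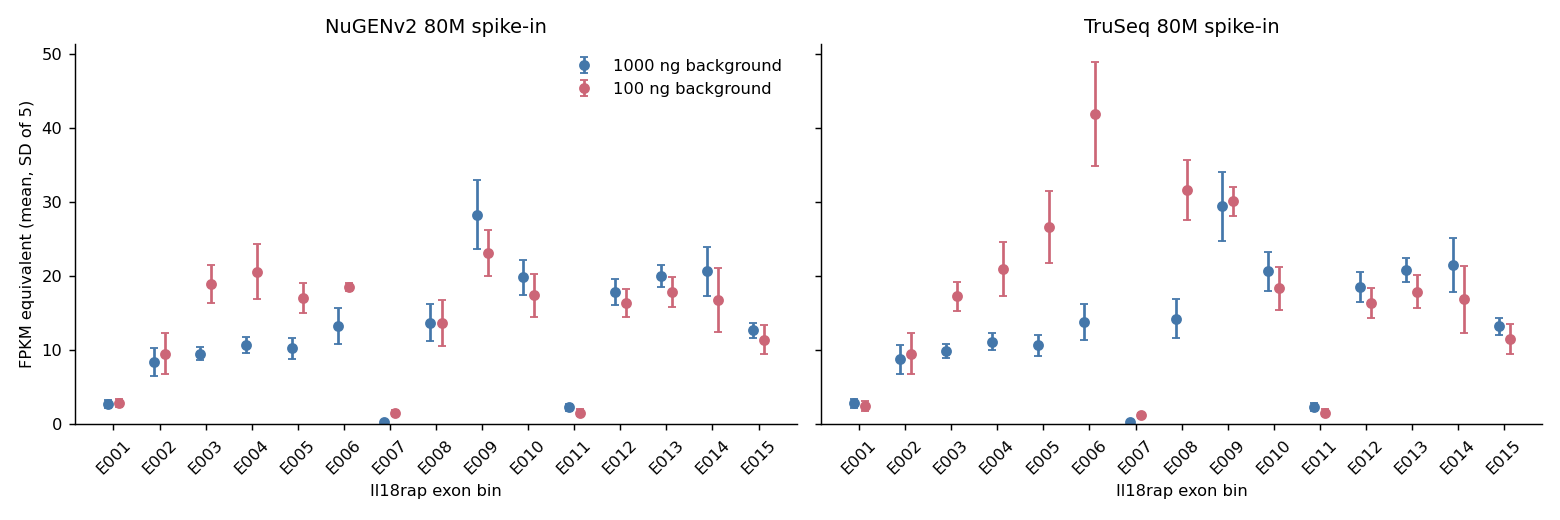
FPKM equivalents of the 15 Il18rap bins in the 1000 ng (blue) and 100 ng (red) backgrounds with 80M NuGENv2 reads (left) and 80M TruSeq reads (right), as means with SD over 5 replicates. The backgrounds separate from E003 to E007 on the left and from E003 to E008 on the right, where E006 stands at 41.9 against 13.8.

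Exon 6 (E006), the last exon before the intron part, showed the largest difference with TruSeq reads on the log2(value + 1) scale, while E007 had the larger ratio of means. It measured 12.4, 13.3, 12.7, 12.6 and 18.1 FPKM equivalents in the 1000 ng replicates and 44.9, 48.5, 33.3, 35.3 and 47.3 in the 100 ng replicates. All 100 ng replicates lay above all 1000 ng replicates, and 1000 ng replicate 5 stood above the other 4. The log2 difference was 1.53 (SE 0.15, limma adjusted p = 6.18e-05). With NuGENv2 reads the 100 ng replicates were 17.7, 18.9, 19.0, 18.8 and 18.4 against 12.0, 12.5, 12.2, 12.1 and 17.6, a log2 difference of 0.47 (SE 0.11, limma adjusted p = 0.0227). Here the groups were separated by a narrow margin, between 17.6 in 1000 ng replicate 5 and 17.7 in 100 ng replicate 1.

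Exon 7 (E008), the first exon after intron 6, separated the kits. With 80M TruSeq reads it measured 12.7, 16.6, 14.3, 10.7 and 16.9 in the 1000 ng replicates and 35.1, 32.3, 25.1, 30.9 and 34.7 in the 100 ng replicates. No replicate of one background reached the other, and the log2 difference was 1.10 (SE 0.15, limma adjusted p = 0.000345). With 80M NuGENv2 reads, E008 measured 13.7 ± 2.52 against 13.7 ± 3.09 (SD, n = 5), and its 100 ng reads were those of the 20M table, 37, 23, 72, 80 and 30. That log2 difference was -0.01 (SE 0.17, limma adjusted p = 0.994). The difference between kits at E008 was not tested, since both tables hold the same background reads.

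The intron part E007 rose with both kits, from a low level. Its reads in the 100 ng replicates were 9, 7, 14, 13 and 12 with 20M NuGENv2 reads, 46, 44, 51, 50 and 49 with 80M NuGENv2 reads, and 36, 34, 41, 40 and 39 with 80M TruSeq reads. In both 80M tables every 100 ng replicate lay above the 20 reads of the highest 1000 ng replicate. The mean level was 5.55 times that of the 1000 ng background with NuGENv2 (1.53 ± 0.451 against 0.276 ± 0.0565 FPKM equivalents, SD, n = 5) and 4.22 times with TruSeq (1.21 ± 0.337 against 0.287 ± 0.0573). On the log2(value + 1) scale, which understates changes of low values, the differences were 0.97 (SE 0.13, limma adjusted p = 0.00123) and 0.77 (SE 0.12, limma adjusted p = 0.000746).

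The 5′ exons E003 and E004 differed by similar amounts with the 2 kits, and coding exon 5 (E005) by more with TruSeq. E003, the last fully untranslated exon, measured 9.56 ± 0.854 against 19.0 ± 2.57 with NuGENv2 and 9.94 ± 0.900 against 17.3 ± 2.01 with TruSeq (SD, n = 5), log2 differences of 0.92 and 0.74. E004, the exon of the start codon, gave log2 differences of 0.87 and 0.84. E005 measured 10.3 ± 1.37 against 17.0 ± 2.03 and 10.7 ± 1.46 against 26.7 ± 4.89, log2 differences of 0.68 and 1.23. In each of these bins and tables the 100 ng replicates lay above all 1000 ng replicates, and limma adjusted p ranged from 0.000156 to 0.00446. Over all bins, 12.4% with NuGENv2 and 18.3% with TruSeq had backgrounds that did not overlap, against 5 and 6 of the 15 Il18rap bins.

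The remaining bins showed no call at 80M. E001 and E002, the first UTR exons, had log2 differences between -0.16 and 0.14 in the 2 tables. E009 was at 0.04 with TruSeq and at -0.28 with NuGENv2. E010 to E015, of which E010 held 2 more reads with 80M TruSeq than with 20M NuGENv2 reads and the others the same number, lay below 0 in both tables, between -0.12 and -0.39, and their adjusted p ranged from 0.129 to 0.576 (limma). In whole reads with no scaling, the mean of the 100 ng background was higher for E003 to E007 with NuGENv2 and for E003 to E008 with TruSeq, which are the bins called, and lower for all others. These means come from the same reads as the calls, so they are no separate check of them.

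**Figure D3:**
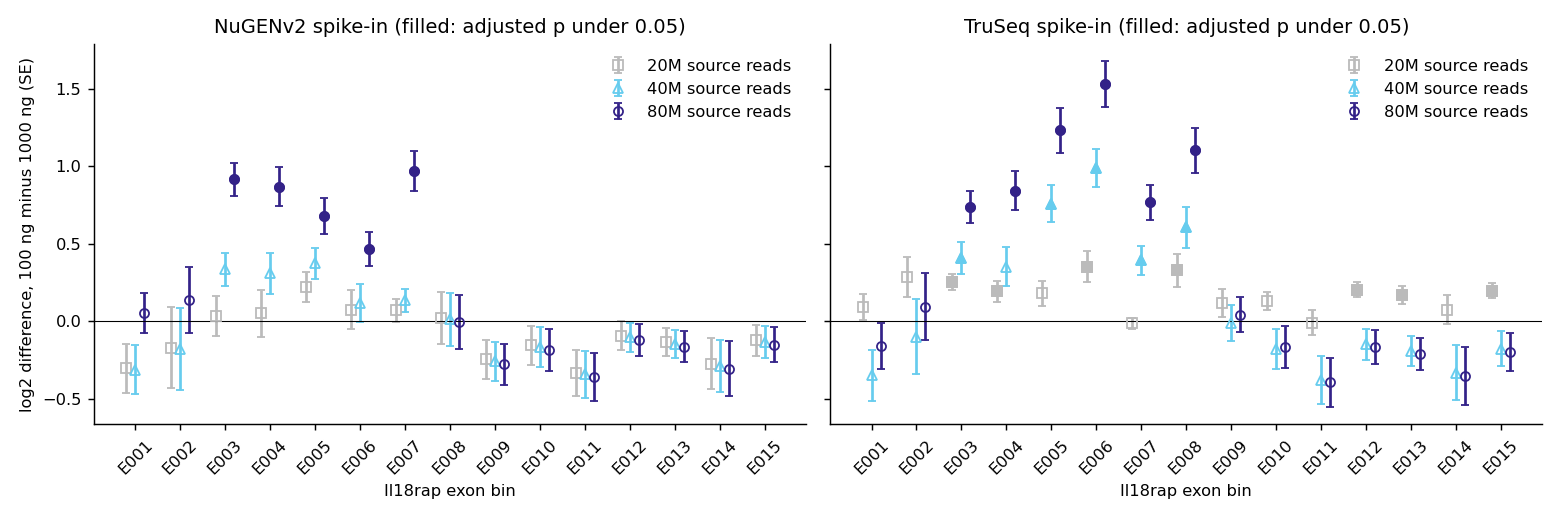
Log2 difference of each Il18rap bin, 100 ng minus 1000 ng background, with its SE, for NuGENv2 (left) and TruSeq (right) at 20M (squares), 40M (triangles) and 80M (circles) source reads, filled where the limma adjusted p passed the threshold of 0.05. The differences of E003 to E007 (left) and E003 to E008 (right) are larger at 80M than at 40M. Those of E010 to E015 stay below 0 except at 20M TruSeq reads, where only E011 does (-0.0096).

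At lower depths fewer of these bins were called with NuGENv2. With 40M TruSeq reads 5 bins passed limma, E003 and E005 to E008 (17.2% of all bins called, 10.8% as higher in the 100 ng background), led by E006 with a log2 difference of 0.99 (SE 0.12, limma adjusted p = 0.000630). E004 was at 0.35 with an adjusted p of 0.0953 (limma). With values as deposited, with or without the fifth 100 ng replicate, 0 bins passed limma there. With NuGENv2 reads, limma called 0 Il18rap bins at 40M (5.09% of all bins called) and 0 at 20M (1.95%). The exact permutation test also called 0 bins in both tables, where its smallest p cannot pass the adjustment. The smallest adjusted p was that of E005 in both, 0.0733 at 40M and 0.268 at 20M (limma).

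The second comparison asked whether the bins of Il18rap changed unequally, which was tested with limma diffSplice. Its test per bin sets the difference of a bin against the average difference of the other bins of the model. Bin usage differed with 40M NuGENv2 (F test, limma adjusted p = 0.00236), 80M NuGENv2 (2.31e-16), 40M TruSeq (5.95e-14) and 80M TruSeq reads (8.32e-26). It did not pass with 20M NuGENv2 (limma adjusted p = 0.498) or 20M TruSeq reads (0.0570). The latter passed with size factors from models without listed kit reads (limma adjusted p = 0.000175), with values as deposited without the fifth 100 ng replicate (8.23e-34), and without 1000 ng replicate 1 (0.00301) or 5 (2.91e-05). With values as deposited, all 4 calls were lost (limma adjusted p between 0.595 and 1), and without the fifth 100 ng replicate that of 80M TruSeq reads passed (0.000824). The share of all models called was 27.6%, 31.0% and 39.7% for NuGENv2 and 60.3%, 46.6% and 46.6% for TruSeq at 20M, 40M and 80M, so a call on a model is common in these tables. The test treats the bins of a library as independent, which makes its p-values too small.

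With 80M TruSeq reads, 13 of the 15 bins passed the test of usage per bin (19.2% of all bins). E003 to E008 leaned toward the 100 ng background, by 0.45 to 1.30 log2 units relative to the average of the other bins (E006 highest). E001 and E010 to E015 leaned toward the 1000 ng background, by -0.51 to -0.76, although E011 to E015 held the same reads as in the 20M NuGENv2 table. With 80M NuGENv2 reads 7 bins passed (10.8% of all bins). E003, E004, E005 and E007 leaned toward the 100 ng background, E007 by 0.86, and E009, E011 and E014 toward the 1000 ng background.

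Ratios within a library need no scaling between libraries, and they were chosen after values were seen, so they are a description. Reads per base over exons 1 to 6 (E001 to E006) divided by those over exons 7 to 13 (E008 to E010 and E012 to E015) were 0.660, 0.548, 0.584, 0.591 and 0.639 in the 1000 ng replicates. In the 100 ng replicates they were 1.11, 1.36, 0.867, 0.913 and 1.42 with 80M NuGENv2 reads, and 1.45, 1.69, 1.04, 1.11 and 1.76 with 80M TruSeq reads. All 100 ng replicates were above all 1000 ng replicates in both tables and in both 40M tables, and replicates 3 and 4, which held the most background reads, were the lowest at 80M. With 20M NuGENv2 reads the 100 ng mean was 0.722 ± 0.0975 against 0.604 ± 0.0451 (SD, n = 5), and the replicates overlapped.

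The intron part set against the exon before it also differed between the kits at 80M. E007 over E006 in reads per base was 0.0207 ± 0.00178 in the 1000 ng background (SD, n = 5). It was 0.0983, 0.0957, 0.0517, 0.0593 and 0.109 in the 100 ng replicates with 80M NuGENv2 reads and 0.0303, 0.0289, 0.0241, 0.0256 and 0.0333 with 80M TruSeq reads. All 100 ng replicates lay above all 1000 ng replicates in both, and each NuGENv2 value lay above all TruSeq values. The kits share their background reads and have 1 set of added reads each, so their separation has no replicates and was not tested. At 40M the kits overlapped, at 0.0188 to 0.0441 with NuGENv2 and 0.0197 to 0.0313 with TruSeq reads in the 100 ng replicates. At 20M and 40M NuGENv2 and at 40M TruSeq reads, the backgrounds overlapped in this ratio.

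**Figure D4:**
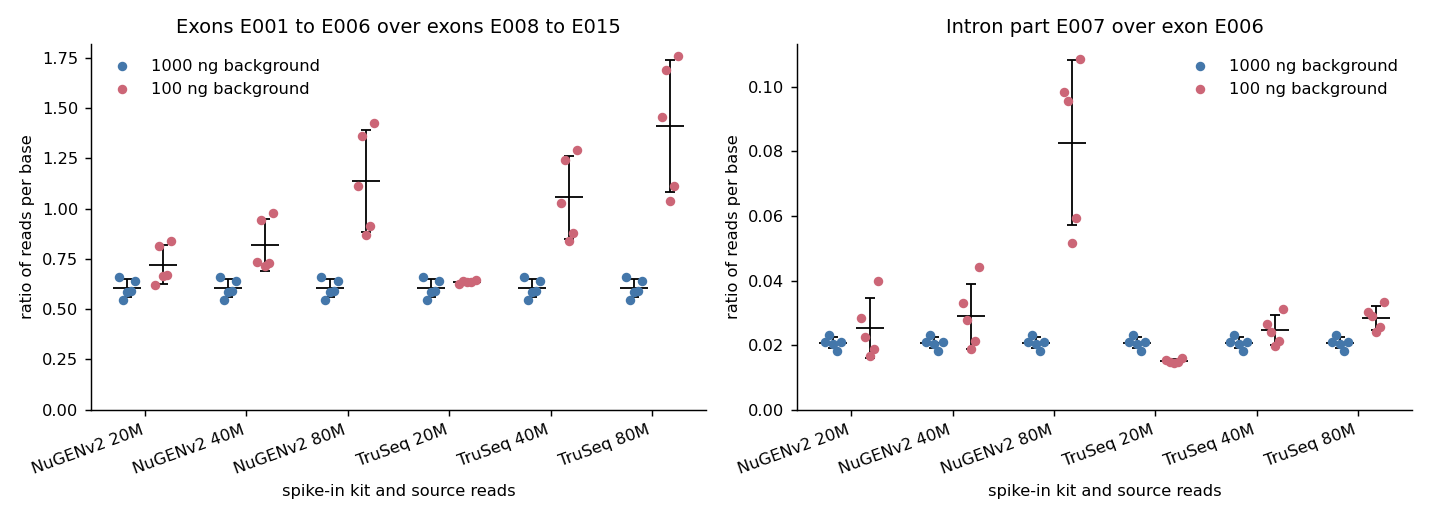
Ratios of reads per base within each library, for exons E001 to E006 over exons E008 to E015 without the intron part E011 (left) and for the intron part E007 over exon E006 (right), by kit and source depth, with 5 replicates per point cloud and the mean with SD. The 100 ng points (red) lie above the 1000 ng points (blue) at 80M in both panels, and the E007 ratio reaches 0.109 with NuGENv2 and 0.0333 with TruSeq.

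The third comparison asked whether Il18rap as a whole differed between backgrounds, from all reads of the model over its total length. The samples are mixtures built on a computer, so a difference in this total is not read as a difference in cells or in RNA per cell. With 80M TruSeq reads the 1000 ng replicates measured 8.76, 9.46, 7.97, 8.71 and 8.41 FPKM equivalents and the 100 ng replicates 11.9, 12.8, 11.6, 11.6 and 12.3. The groups did not overlap, and the total was higher in the 100 ng background by a log2 difference of 0.43 (SE 0.06, limma adjusted p = 0.000112), where 41.4% of the 58 models were called and 36.2% did not overlap, although with values as deposited and unscaled the difference was -0.02. With 80M NuGENv2 reads the totals were 8.46, 8.92, 7.69, 8.39 and 8.21 against 9.16, 9.79, 9.99, 9.81 and 9.35, without overlap, a log2 difference of 0.19 (SE 0.05, limma adjusted p = 0.0225), where 24.1% of models were called and 20.7% did not overlap. With 40M TruSeq reads the log2 difference was 0.17 (SE 0.05, limma adjusted p = 0.0175), where 39.7% were called.

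The calls at 80M NuGENv2 and 40M TruSeq reads did not hold under all settings. Under values as deposited both differences turned to -0.06. With size factors from models without listed kit reads the differences were 0.20 and 0.22, no smaller, but not called (limma adjusted p = 0.0934 and 0.0590), and with bins weighted equally they were 0.11 and 0.14 and not called (0.245 and 0.0806). With NuGENv2 at 80M the call was also lost when 1000 ng replicate 3, 4 or 5 or 100 ng replicate 2 or 4 was left out, with adjusted p up to 0.0561 (limma). With NuGENv2 reads at 20M and 40M the totals overlapped, with log2 differences of -0.06 (SE 0.06, limma adjusted p = 0.608) and -0.01 (SE 0.06, limma adjusted p = 0.872), where 5.17% and 17.2% of models were called.

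**Figure D5:**
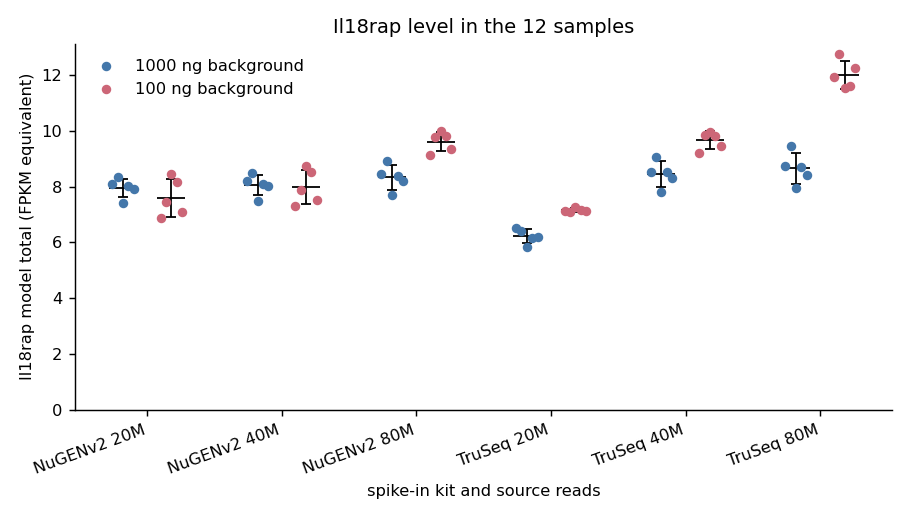
Il18rap model total in FPKM equivalents in the 12 samples, by kit and source depth, with 5 replicates per sample and the mean with SD for the 1000 ng (blue) and 100 ng (red) backgrounds. The 100 ng sample with 80M TruSeq reads is highest at 12.0, and both samples with 20M TruSeq reads are lowest, at 7.16 and 6.22.

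Ordered by mean total, the 100 ng sample with 80M TruSeq reads was highest at 12.0 ± 0.504 (SD, n = 5) and did not overlap with the next. The 100 ng samples with 40M TruSeq and 80M NuGENv2 reads followed at 9.67 ± 0.318 and 9.62 ± 0.350 and overlapped each other. The next 7 samples ranged from 8.66 ± 0.548 to 7.60 ± 0.688. Each overlapped its neighbours in this order, also the samples just above and just below these 7. Both samples with 20M TruSeq reads were last at 7.16 ± 0.0656 and 6.22 ± 0.261, without overlap between them. The 1000 ng samples hold identical reads, so their spread in this order, from 6.22 to 8.66, comes from the scaling of each table alone.

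The sample that joined the 100 ng background with 20M TruSeq reads differed from all others. Its Il18rap totals were 5946, 5935, 6694, 6484 and 5914 reads, which is 5445 reads more in each replicate than with 20M NuGENv2 reads. The gain was not confined to Il18rap, since reads over all bins were also higher, between 1101798 and 1281559. The inferred library total of replicate 5 was 200944658 reads, against 16022256 with 20M NuGENv2 reads. What was added to this sample was not tested. The 5445 added Il18rap reads fell on all 15 bins, with 2794 of them on E011 to E015, where no other step added a read. E007 took 51 of them, 0.937% (exact Clopper-Pearson 95% interval 0.698 to 1.23%), against 1.47% of the 100 ng reads in the table with 20M NuGENv2 reads. The added reads came to between 4.64 times (E007) and 8.96 times (E011) the mean reads of a bin in that table.

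At 20M TruSeq reads, 7 Il18rap bins passed limma, E003, E004, E006, E008, E012, E013 and E015, all higher in the 100 ng background by log2 differences of 0.17 to 0.35, against 62.4% of all bins called and 29.9% as higher in that background. This count was 14 with size factors from models without listed kit reads, 15 with values as deposited without the fifth 100 ng replicate and 0 with all values as deposited, so it has no stable size. Shares of all bins called were not computed for these settings, so the counts are not read as particular to Il18rap. In the scaled values 5 of the 15 bins did not overlap, against 50.9% of all bins. The total was higher in the 100 ng background by 0.18 (SE 0.03, limma adjusted p = 0.000451), where 79.3% of models were called, and by 0.72 with size factors from models without listed kit reads. The ratio of exons 1 to 6 over exons 7 to 13 was 0.636 ± 0.00639 and overlapped with the 1000 ng background, while E007 over E006 was 0.0151 ± 0.000593 and lay below it in all 5 replicates (SD, n = 5).

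The models whose mean log2 totals over the 12 samples ran most like that of Il18rap were Dhps, the deoxyhypusine synthase (Pearson r = 0.99), Birc3, an inhibitor of apoptosis (0.96), and Nono, a nuclear RNA-binding protein (0.96). All 3 are on the kit-read list of the 100 ng background, and the 12 samples share background reads and scaling, so these values are a description. Among the 12 models on that list only, Il18rap ranked 12 by log2 difference with 80M TruSeq reads, at 0.43 against a median of 1.01, and 9 with 80M NuGENv2 reads, at 0.19 against a median of 0.36. The median over all 58 models was 0.09 and 0.06. By reads gained from 40M to 80M, Il18rap ranked 8 of 12 with TruSeq, at 190 reads against a median of 284.5, and 6 of 12 with NuGENv2, at 123 against 105.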

How the data were processed

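Processed tables of paired-end RNA sequencing mixtures were used, 6 tables of 10 columns, 1 for each kit and source depth. STAR, Cuffdiff and the mm9 genome are named without versions in the submitters' processing notes, and the counting of reads over bins is not stated there. In the deposited tables the values were a coverage signal, whole reads divided by bin length. For replicate 5 of the 100 ng background the signal was divided again, by its library total in units of 1e6 reads (between 16022256 and 200944658 reads). Bin lengths and this total were inferred from the values, and 100.0% of 55500 values were whole reads within 0.001. Lengths equalled the annotated width minus 1 for 14 of 15 Il18rap bins. The last exon bin, E015, was shorter than annotated, at 672 against 3081 bases. Tables without the TruSeq mark in their column names were read as NuGENv2.

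FPKM equivalents used median-of-ratios size factors, with the inferred library total of that replicate setting the level. Tables were scaled separately. limma 3.58.1 (R 4.3.3) was fitted per table on log2(value + 1), 5 against 5, two-sided, with Benjamini-Hochberg adjustment over 924 bins or 58 models and a threshold of 0.05. Bins needed a mean of at least 1 or a listed transcript in their model. All 15 Il18rap bins entered. Usage was tested with diffSplice. Scripts used Python 3.11.15 and were tested on simulated data. Differences between tables of 1 background were not tested. Bins were named with statistics where they passed in at least 1 table or gained most or least reads, and other models by the 3 highest correlations. Il18rap, the lists and the tests were chosen with earlier results of these data known.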

Additional observations from a re-analysis of the deposited data

Results flagged for a closer look

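Of 192 groups of 5 replicates (each Il18rap bin and total in each sample), 12 had a highest or lowest replicate whose gap to the nearest other exceeded 0.71 of the range, and chance gives about 1 in 20. The 1000 ng reads are the same in all tables and most 100 ng reads are shared, so the repeats below are few separate observations.

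Exon 6 (E006) was high in 1000 ng replicate 5 in all 6 tables, at 17.0, 17.2 and 17.6 FPKM equivalents in the NuGENv2 tables at 20M, 40M and 80M and at 13.3, 17.9 and 18.1 in the TruSeq tables. The other replicates lay between 11.5 and 11.8 in the first of these. It held 69 reads there, and the bin is named in the comparisons above. E001, the first UTR exon, was high in 100 ng replicate 4 in 5 tables, at 3.14 (20M), 3.18 (40M) and 3.88 (80M) in NuGENv2 tables and at 2.37 (20M) and 3.64 (80M) in TruSeq tables. E001 held 11 reads in that replicate with 20M NuGENv2 reads and 3 to 8 in the others. E009 (exon 8) was high in 1000 ng replicate 5 with 20M TruSeq reads, at 27.1, against 18.7 to 21.1 in the others.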

How the results depend on the processing

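The 3 results of each table were the log2 difference of the total, the count of bins called and the adjusted p of usage (limma). Shares of all bins called were computed for the main setting only. Counts of Il18rap bins under other settings therefore describe stability alone. Pseudocount 0.1 and no filter on low values kept the call and direction of all 18. A mean of at least 1 for every bin kept those of totals and usage, but left 14 Il18rap bins tested, without E007. Bins called were then 4 at 80M NuGENv2, 4 at 40M TruSeq and 5 at 80M TruSeq, in place of 5, 5 and 6. With size factors from models without kit reads, the totals at 80M NuGENv2 and 40M TruSeq were 0.20 and 0.22 and no longer called, and 20M TruSeq gave 14 bins and a usage p of 0.000175. With values as deposited, the totals at 80M NuGENv2, 40M and 80M TruSeq turned to -0.0638, -0.0620 and -0.0189, that at 20M TruSeq was 0.76 and not called, 0 bins were called in these 4 tables, and the usage p was 1 at 40M and 80M NuGENv2 and 40M TruSeq and 0.595 at 80M TruSeq. That setting has no scaling for depth and keeps replicate 5 of the 100 ng background in another unit. Without that replicate, the totals at 80M NuGENv2, 40M and 80M TruSeq were -0.0062, -0.0039 and 0.0489, that at 20M TruSeq was 1.02 and called (limma adjusted p = 5.2e-07), bins called were 0, 0 and 2 (15 at 20M TruSeq), and the usage p was 1, 1 and 0.901 at 40M and 80M NuGENv2 and 40M TruSeq and 8.23e-34 at 20M TruSeq. Weighting bins equally gave totals of 0.11 and 0.14 at 80M NuGENv2 and 40M TruSeq, not called. The exact permutation called 0 bins at 80M NuGENv2 and 40M TruSeq, where its smallest p cannot pass the adjustment. The cause of the other changes was not tested.

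With the column number as a replicate block, the totals at 80M NuGENv2 and 40M TruSeq were again 0.19 and 0.17 but not called (limma adjusted p = 0.102 and 0.0744), and 4 bins at 20M TruSeq and 2 at 40M TruSeq were called. Same-numbered columns correlated between -0.382 and 0.0906, and none of the 5 correlated best with its own number in any table, so the numbers are not taken to pair the samples.

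Leaving out 1 replicate in turn, the totals ranged from -0.10 to -0.03, -0.0433 to 0.0146 and 0.16 to 0.21 with NuGENv2 at 20M, 40M and 80M, and from 0.16 to 0.19, 0.15 to 0.20 and 0.41 to 0.46 with TruSeq. At 40M NuGENv2 the sign turned without 100 ng replicate 1 or 5 or 1000 ng replicate 2. Bins called ranged from 0 to 0, 0 to 1 and 4 to 5, and from 5 to 9, 4 to 6 and 6 to 6. Usage p ranged from 0.146 to 1, 0.000507 to 0.0462 and 1.81e-16 to 1.17e-12, and from 2.91e-05 to 0.243, 4.07e-14 to 1.84e-10 and 3.42e-25 to 1.97e-20, and at 20M TruSeq it passed without 1000 ng replicate 1 or 5. Low reads limit E001, E007 and E011 most.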
